A study of Mus musculus with 3 samples.

Results

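Parvalbumin (Pvalb) interneuron nuclei were taken from single-nucleus RNA libraries of mouse hippocampus by their counts of unique molecular identifiers (UMIs, 1 per captured transcript). A nucleus was a member when it had 500 or more genes, 3 or more UMIs of Gad1 and Gad2 together and more of them than of Slc17a7, 2 or more Pvalb UMIs, and more Pvalb UMIs than UMIs of each of Sst, Vip and Lamp5. The rule found 87 nuclei among the 27426 deposited barcodes, of which 26480 had 500 or more genes. Mice 1, 2 and 3 gave 54, 7 and 26 of them. All 3 mice were adult females heterozygous for the D allele of Scn8a, which encodes a voltage-gated sodium channel, and are titled post-onset. Each mouse has a batch number of its own, so that differences between mice and between batches cannot be told apart, and no control or pre-onset animals were analysed here. The comparisons therefore lie between classes of nuclei inside each mouse. Barcodes numbered 8863, 13904 and 4659 in mice 1, 2 and 3, with median totals of 8859, 1711 and 25775 UMIs. Nuclei were stained with propidium iodide and sorted before 10x 3' library preparation, per the labels' protocols.

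Parvalbumin interneurons are GABA-releasing cells that fire brief action potentials at high rates. They arise in the medial ganglionic eminence of the embryo, carry Kv3 potassium channels that end each spike fast, release GABA in tight time with the spike, and are often wrapped in a net of extracellular matrix. In the hippocampus they include basket cells, which contact cell bodies, axo-axonic cells, which contact axon initial segments, and bistratified cells, which contact dendrites.

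The values that chose the members are given as a description. Pvalb stood at 134, 126 and 44.7 CPM (UMIs of the gene per 1000000 UMIs summed over the class) in the members of mice 1, 2 and 3, from 182, 18 and 72 Pvalb UMIs. The other inhibitory nuclei, which met the same Gad1, Gad2 and Slc17a7 conditions, had 3.46, 5.39 and 0.725 CPM. Among 2035, 737 and 758 nuclei with 3 or more Slc17a7 UMIs and none of Gad1 or Gad2, called glutamatergic here, none had 2 or more Pvalb UMIs, which allows shares of up to 0.147%, 0.407% and 0.396%. Many members lay at the threshold, where 39 of the 87 had exactly 2 Pvalb UMIs, and the highest count was 10. Just inside it, the nuclei with 2 Pvalb UMIs had 99.5, 9.31 and 104 CPM of Syt2, a gene outside the rule, against 80.9, 134 and 36.6 CPM in the 26, 19 and 18 inhibitory nuclei with 1 Pvalb UMI just outside it. Members were deep nuclei, with median totals of 22534, 21751 and 49673 UMIs, against 13541, 6462 and 27180 UMIs in the 795, 450 and 1748 other inhibitory nuclei.

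Members made up 6.36% of the inhibitory nuclei in mouse 1 (exact 95% interval 4.81% to 8.22%), 1.53% in mouse 2 (0.618% to 3.13%) and 1.47% in mouse 3 (0.960% to 2.14%). The share in mouse 1 stood above both others; the mean was 3.12% ± 2.81 (SD, n = 3), and 1.50% without mouse 1. These shares depend on depth through the count of 2 Pvalb UMIs and on which nuclei enter the denominator. With nuclei restricted to those with 2 or more UMIs of Slc32a1, the vesicular GABA transporter, and Dlx6os1, a long noncoding RNA of the GABAergic lineage, the shares were 9.02%, 2.48% and 8.30%.

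That restriction was chosen after the data were seen, because many other inhibitory nuclei were poor in Slc32a1 and Dlx6os1. In mice 1, 2 and 3, 341 of 795, 293 of 450 and 1483 of 1748 lacked those 2 UMIs, and 265, 75 and 1357 of all other inhibitory nuclei had 2 or more UMIs of Prox1, a transcription factor of dentate granule cells and of some interneurons. The nuclei that lacked them had 4.05, 4.13 and 0.915 CPM of Slc32a1, and 202, 116 and 318 CPM of Prox1. The other inhibitory class is thus not shown to hold GABAergic interneurons alone. In mouse 3 these nuclei had 221 CPM of Erbb4. The 265 other inhibitory nuclei of mouse 3 that passed had 25.9 CPM of Slc32a1, 4557 CPM of Erbb4 and 50.4 CPM of Prox1. Members of mouse 3 had 25.5, 8162 and 14.9 CPM of these genes, and 45, 4 and 24 members of mice 1, 2 and 3 passed the restriction. Counts and leading results against other inhibitory nuclei are therefore given also with the restriction on both sides, called the GABA-marker-positive comparison below. The restriction does not treat interneuron classes alike. Dlx6os1 averaged 765 CPM in Vip and 372 CPM in Lamp5 nuclei, against 123 CPM in Sst and 166 CPM in Pvalb nuclei. In mice 1, 2 and 3 it kept 74, 25 and 58 of 81, 29 and 71 Lamp5 nuclei. Of 149, 24 and 140 Sst nuclei it kept 94, 15 and 76. The libraries shared 36 barcodes (mice 1 and 2), 13 (mice 1 and 3) and 25 (mice 2 and 3), and the doublet caller Scrublet marked 7, 0 and 2 members.

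Genes of parvalbumin interneurons that the rule had not used were high in the summed counts of the members. The members and the list of these genes were chosen with earlier results of these data known. Their levels are therefore no independent test of the label, and sums over a class do not show it for single nuclei. Of 25 such genes, 21 were higher than in the other inhibitory nuclei and none was lower, with a median log2 ratio of 1.56 beside -0.06 over all genes tested. Log2 ratios, or log2 fold changes, are Pvalb nuclei over the other class. Across all 12426 genes tested, 416 (3.35%) were higher and 538 (4.33%) lower, 954 (7.68%) in all. A gene counted as higher or lower when edgeR's quasi-likelihood test, with mouse as a block, gave an adjusted p under 0.05 and its log2 ratio was at least 1 in size. That count was 131 when each nucleus was thinned to 1000 UMIs and 133 without the block. In the GABA-marker-positive comparison 10 of the 24 marker genes tested were higher and none lower, beside 222 of 11541 genes (1.92%) higher and 393 (3.41%) lower. The summed level of the 25 genes was 18444, 15502 and 17006 CPM in members, 10716, 9451 and 9749 CPM in GABA-marker-positive other inhibitory nuclei and 8187, 7723 and 2855 CPM in all other inhibitory nuclei.

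Syt2, the fast calcium sensor of transmitter release at basket cell terminals, led the list. The gene (ENSMUSG00000026452) lies at chromosome 1, 134646677 to 134762593, plus strand, in GENCODE M21 on GRCm38. It had 131, 62.8 and 142 CPM in Pvalb nuclei of mice 1, 2 and 3, against 8.07, 12.4 and 3.36 CPM in other inhibitory nuclei. The classes were far apart in each mouse. The log2 fold change was 4.20 ± 0.424 (SE, adjusted p = 0.000435), and 3.56 in the GABA-marker-positive comparison. At least 1 Syt2 UMI was found in 74.1%, 42.9% and 80.8% of members, against 6.04%, 4.67% and 4.52% of other inhibitory nuclei. In glutamatergic nuclei, with median depths of 16883, 10442 and 39755 UMIs, 4.32%, 2.58% and 8.97% had one. GABA-marker-positive other inhibitory nuclei, which include nuclei with 1 Pvalb UMI, had 8.29, 16.0 and 9.83 CPM of Syt2, against 4.28, 2.35 and 5.26 CPM in glutamatergic nuclei.

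Kcnab3, a beta subunit of Kv1 channels, had 42.1, 20.9 and 28.6 CPM in Pvalb nuclei, against 9.22, 7.05 and 2.65 CPM in other inhibitory nuclei, a log2 ratio of 2.56 ± 0.357 (SE, adjusted p = 0.00156). Nefh, the heavy neurofilament chain of thick axons, had 42.9, 20.9 and 49.0 CPM in Pvalb nuclei, against 6.69, 9.96 and 4.92 CPM in other inhibitory nuclei. Its log2 fold change was 2.68 ± 0.341 (SE, adjusted p = 0.000981). Btbd11, an ankyrin-repeat protein of inhibitory neurons, had 528, 488 and 634 CPM in Pvalb nuclei, against 139, 163 and 46.5 CPM in other inhibitory nuclei, a log2 ratio of 2.38 ± 0.354 (SE, adjusted p = 0.00217). All 3 genes were higher in the members of every mouse and kept their call in the GABA-marker-positive comparison, at 2.02, 1.76 and 1.43. The same held for Sox6, Cntnap4, Cplx1, Slit2, Ppargc1a and Vamp1.

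For other well-known markers the size of the difference rested on the comparison nuclei. Kcnc1 and Kcnc2 encode the Kv3.1 and Kv3.2 channels that repolarise fast spikes. Kcnc1 had 427, 265 and 287 CPM in Pvalb nuclei, against 161, 126 and 62.7 CPM in all other inhibitory nuclei and 192, 143 and 164 CPM in GABA-marker-positive ones. The log2 ratio was 1.52 ± 0.23 (SE, adjusted p = 0.0023) against all, and 0.90 (adjusted p = 0.00359) in the GABA-marker-positive comparison, which is under the fold threshold. Kcnc2 behaved likewise, at 1.61 and 0.89 (adjusted p = 0.00125). Erbb4, the neuregulin receptor of many interneurons, was at 8439, 7479 and 8162 CPM in Pvalb nuclei, against 3878, 3875 and 1118 CPM in all other inhibitory nuclei and 5395, 5000 and 4557 CPM in GABA-marker-positive ones. Its log2 fold change was 1.56 against all and 0.69 (adjusted p = 0.00864) in the GABA-marker-positive comparison. Erbb4 does not set members apart from every class. Vip nuclei had 9265, 8057 and 7803 CPM of it, and Lamp5 nuclei 7919, 5937 and 6076 CPM. Every member but 1 had an Erbb4 UMI. That nucleus, of mouse 3, had 39185 UMIs, 2 of Pvalb, 9 of Prox1 and none of Slc32a1, Dlx6os1 or Sox6.

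**Figure D1:**
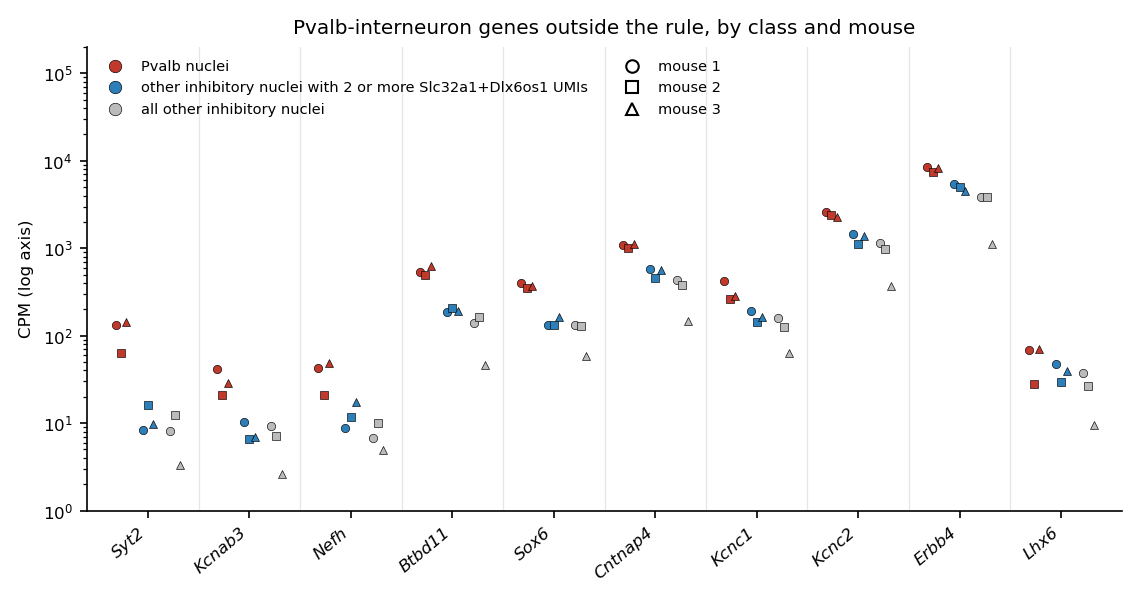
CPM (log axis) of 10 parvalbumin-interneuron genes that the rule did not use, in Pvalb nuclei, GABA-marker-positive other inhibitory nuclei and all other inhibitory nuclei; each symbol is 1 mouse. Syt2, Kcnab3, Nefh, Btbd11 and Sox6 lie above both comparison classes in each mouse, where Kcnab3 and Nefh of mouse 2 members rest on 3 UMIs each. Erbb4 was also high in Vip and Lamp5 nuclei, which are not drawn here. The grey triangles of mouse 3 lie below the other mice for all 10 genes.

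The genes with the largest differences were named by a fixed rule, 12 in each direction. The 12 higher ones were Syt2, Agbl1, Itih5, Mypn, Adamtsl5, Mybpc1, Cdk15, Phldb2, Nxph2, Tuft1, Zbtb7c and Sgpp2. Their log2 fold changes lay between 2.78 and 4.20. Itih5 had 10.3, 55.8 and 9.93 CPM in Pvalb nuclei, against 1.69, 0.415 and 0.425 CPM in other inhibitory nuclei. Its mean reached the 20 CPM needed for naming through mouse 2 alone, where 55.8 CPM is 8 UMIs. Agbl1 encodes a carboxypeptidase that trims glutamates from proteins and had 222, 377 and 433 CPM in Pvalb nuclei, against 23.4, 29.0 and 8.76 CPM in other inhibitory nuclei. The log2 ratio was 4.15 ± 0.396 (SE, adjusted p = 0.000435), and the classes did not overlap. Mypn and Mybpc1 are best known as sarcomere proteins of muscle. Mypn had 66.5, 55.8 and 37.2 CPM in Pvalb nuclei, against 6.07, 4.98 and 1.75 CPM in other inhibitory nuclei, a log2 ratio of 3.77 ± 0.302 (SE, adjusted p = 0.000241). Mybpc1 had 42.1, 20.9 and 39.7 CPM in Pvalb nuclei, against 2.92, 5.81 and 1.86 CPM in other inhibitory nuclei, a log2 ratio of 3.72 ± 0.404 (SE, adjusted p = 0.000579). Both were higher in every mouse, Mybpc1 in mouse 2 from 3 UMIs. Nxph2, a secreted ligand of alpha-neurexins, had 47.3, 55.8 and 55.2 CPM in Pvalb nuclei, against 15.6, 14.1 and 1.61 CPM in other inhibitory nuclei, a log2 ratio of 2.95 ± 0.579 (SE, adjusted p = 0.0084). All 12 kept their call in the GABA-marker-positive comparison, at 1.89 to 3.56.

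The 12 lower ones were Npas1, Rorb, Vcan, Adarb2, Sema3c, Reln, Col5a2, Plce1, Prox1os, Adamts18, Cald1 and Zfhx4. Npas1, a transcription factor of other interneuron classes, had 1 UMI over the 87 members and 1538 over the other inhibitory nuclei. The ratio was 0.0156 (exact 95% counting interval 0.000394 to 0.0868). This and the later ratios of UMI counts pool the mice and do not pair the classes by mouse. By mouse, Npas1 had 0.739, 0 and 0 CPM in Pvalb nuclei, against 55.2, 36.9 and 11.4 CPM in other inhibitory nuclei. Adarb2, a member of the RNA-editing enzyme family that marks interneurons of the caudal eminence, had 129, 34.9 and 47.2 CPM in Pvalb nuclei, against 3006, 2915 and 1464 CPM in other inhibitory nuclei. Its log2 fold change was -5.09 ± 0.325 (SE, adjusted p = 6.2e-05). Reln, the secreted protein reelin made by Sst and Lamp5 interneurons, had 40.6, 20.9 and 7.45 CPM in Pvalb nuclei, against 496, 351 and 188 CPM in other inhibitory nuclei, a log2 ratio of -4.08 ± 0.286 (SE, adjusted p = 8.73e-05). Both were lower in the members of every mouse, and stayed called in the GABA-marker-positive comparison, at -6.12 and -4.88. Vcan, the matrix proteoglycan versican, had 0.739, 0 and 2.48 CPM in Pvalb nuclei, against 78.8, 67.8 and 35.7 CPM in other inhibitory nuclei, a log2 ratio of -5.14 ± 0.463 (SE, adjusted p = 0.000372).

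For 3 other lower genes the call rested on mouse 3 (Rorb) or on the comparison nuclei (Plce1 and Prox1os), and the cause was not tested. Rorb, a nuclear receptor, had 0.739, 6.98 and 2.48 CPM in Pvalb nuclei, against 5.3, 9.34 and 144 CPM in other inhibitory nuclei, where mouse 3 stood far above the others. Without mouse 3 its log2 fold change of -5.31 became -2.03 (adjusted p = 0.323), and in the GABA-marker-positive comparison it was -3.35 (adjusted p = 0.00164). Plce1, a phospholipase C, and Prox1os, a transcript antisense to Prox1, lost their calls in the GABA-marker-positive comparison, at -1.23 (adjusted p = 0.215) and -1.98 (adjusted p = 0.0769). The sources used here do not say whether counting used strand, so reads of Prox1os and Prox1 cannot be told apart. The other 10 lower genes and all 12 higher genes kept theirs.

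**Figure D2:**
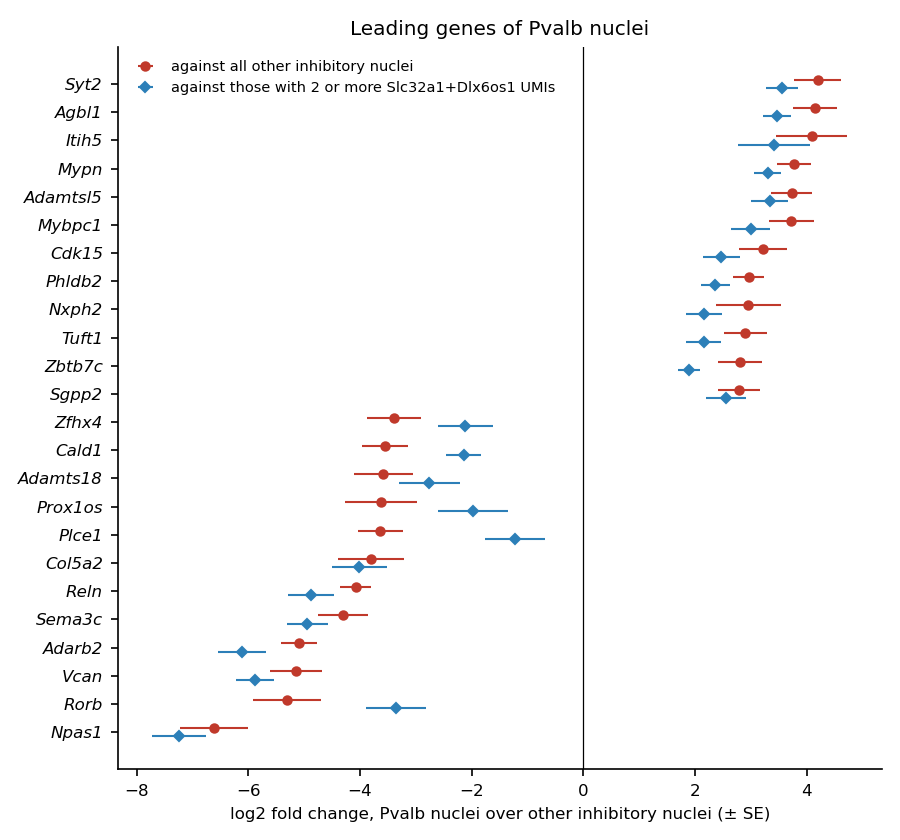
Log2 fold change with SE of the 12 leading higher and 12 leading lower genes, Pvalb over other inhibitory nuclei, against all other inhibitory nuclei (circles) and against GABA-marker-positive ones only (diamonds). Higher genes lie at 1.89 or more in both; Plce1, Prox1os and Rorb move most towards 0, and the Npas1 values rest on 1 UMI in Pvalb nuclei and depend on the fit's prior count.

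Lineage genes were called in both directions. Of 12 tested genes of the medial eminence lineage, from which these cells arise, 6 were higher and 1 was lower. In the GABA-marker-positive comparison 2 were higher and 2 lower. The shares over all genes were 3.35% and 4.33%, and 1.92% and 3.41% in the GABA-marker-positive comparison. No list count was tested against such shares. Sox6, a transcription factor of medial interneurons, had 406, 349 and 374 CPM in Pvalb nuclei, against 132, 129 and 58.8 CPM in other inhibitory nuclei, a log2 ratio of 1.86 ± 0.245 (SE, adjusted p = 0.00112). Lhx6, the transcription factor that sets medial identity, had 69.5, 27.9 and 70.8 CPM in Pvalb nuclei, against 37.3, 26.8 and 9.64 CPM in other inhibitory nuclei, so that mouse 2 was nearly level. The log2 ratio was 1.56 ± 0.389 (SE, adjusted p = 0.029) against all and 0.66 (adjusted p = 0.0443) in the GABA-marker-positive comparison. Lamp5 nuclei had 69.5, 35.4 and 41.2 CPM of Lhx6, level with members in mouse 1 and above them in mouse 2. Satb1 was 1.23 and 0.77 (adjusted p = 0.00515). Npas1 was the gene that was lower. Of 13 caudal and Cck-class genes tested 7 were lower and none higher, and in the GABA-marker-positive comparison 10 of 14 were lower and none higher. Besides Adarb2 and Reln these included Cnr1, the cannabinoid receptor of Cck basket cells, at 16.3, 41.9 and 50.9 CPM in Pvalb nuclei, against 179, 173 and 76.0 CPM in other inhibitory nuclei. Its log2 fold change was -1.95 ± 0.425 (SE, adjusted p = 0.0149). Ndnf, a secreted factor of neurogliaform cells, had no UMI in the members and 698 in the other inhibitory nuclei, which puts it at least 9.72-fold lower with a limit of 3 UMIs over the class.

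Release genes divided by isoform. Of 27 genes of the fast release machinery tested, 3 were higher (Syt2, Cplx1 and Vamp1) and 3 lower (Cplx2, Sv2c and Rims3). Over all genes the shares were 3.35% higher and 4.33% lower. The GABA-marker-positive comparison kept all 6 calls and added Syt9, lower, beside 1.92% higher and 3.41% lower over all genes. Cplx1 and Cplx2 encode complexins, which clamp and trigger vesicle fusion. Cplx1 had 102, 48.8 and 120.4 CPM in Pvalb nuclei, against 41.7, 31.1 and 20.3 CPM in other inhibitory nuclei, a log2 ratio of 1.65 ± 0.294 (SE, adjusted p = 0.00521). Cplx2 had 21.4, 6.98 and 18.0 CPM in Pvalb nuclei, against 72.2, 72.2 and 47.2 CPM in other inhibitory nuclei, a log2 ratio of -1.77 ± 0.265 (SE, adjusted p = 0.00219). The 2 complexins thus moved in opposite directions in each mouse. Vamp1, the vesicle SNARE synaptobrevin 1, was at 1.03 ± 0.247 (SE, adjusted p = 0.0245), while Vamp2 was at -0.23 (adjusted p = 0.613). Syt1, the sensor shared by most forebrain neurons, had 2784, 3307 and 2962 CPM in Pvalb nuclei, against 2864, 2620 and 2612 CPM in other inhibitory nuclei, at 0.08 ± 0.213 (SE, adjusted p = 0.881).

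Among 20 tested genes of energy metabolism 4 were higher and none lower, beside 3.35% and 4.33% over all genes. In the GABA-marker-positive comparison 3 of 19 were higher and none lower, beside 1.92% and 3.41%. Esrrg, the estrogen-related receptor gamma that drives mitochondrial genes, had 746, 886 and 881 CPM in Pvalb nuclei, against 206, 217 and 86.3 CPM in other inhibitory nuclei. The members of each mouse stood above every comparison value, and the log2 fold change was 2.34 ± 0.278 (SE, adjusted p = 0.000641), or 1.80 in the GABA-marker-positive comparison. Ppargc1a, its coactivator PGC-1alpha, had 242, 216 and 251 CPM in Pvalb nuclei, against 101, 101 and 90.6 CPM in other inhibitory nuclei, a log2 ratio of 1.22 ± 0.191 (SE, adjusted p = 0.00271). Ldhb, a lactate dehydrogenase subunit, had 96.8, 76.7 and 60.8 CPM in Pvalb nuclei, against 37.8, 28.0 and 14.6 CPM in other inhibitory nuclei, a log2 ratio of 1.58 ± 0.219 (SE, adjusted p = 0.00151). Cox6a2, a subunit of cytochrome c oxidase, was the fourth (2.28, adjusted p = 0.025), at 12.6, 14.0 and 1.86 CPM in Pvalb nuclei, against 3.38, 2.07 and 0.177 CPM in other inhibitory nuclei. Subunits such as Cox4i1, Cox5a and Atp5a1 did not pass, at 0.31, 0.50 and 0.55. Nuclear 3' libraries hold little mitochondrial RNA, and these values say nothing of it.

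Since Esrrg and Syt2 were both high, the promoter of Syt2 was searched for the estrogen-related receptor element TNAAGGTCA on both strands, a motif picked after these values were seen. The sequence is RefSeq's, from 250 bases before to 50 after the transcript start on build GRCm38.p6, at chr1:134646362-134646661 on the plus strand. The match is in capitals, on the minus strand, and begins 167 bases before the start.
Syt2: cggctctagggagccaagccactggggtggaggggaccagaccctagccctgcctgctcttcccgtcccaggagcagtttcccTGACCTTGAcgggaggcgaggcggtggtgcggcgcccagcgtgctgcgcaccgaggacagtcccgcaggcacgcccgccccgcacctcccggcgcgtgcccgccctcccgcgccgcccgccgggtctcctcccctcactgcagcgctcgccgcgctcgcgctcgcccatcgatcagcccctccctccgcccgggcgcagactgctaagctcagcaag
It is 1 of 2 Syt2 promoters in that table. The motif was present in 421 of 32851 such promoters (1.28%), and of the 12 leading higher genes 10 had an entry and Syt2 alone had a match. A match is a description of letters, not of binding.

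Matrix genes of the perineuronal net divided too. Of 15 tested, 4 were higher and 3 lower, beside 3.35% and 4.33% over all genes. In the GABA-marker-positive comparison 4 of 14 were higher and 4 lower, beside 1.92% and 3.41%. Bcan, the net proteoglycan brevican, had 112, 76.7 and 59.6 CPM in Pvalb nuclei, against 22.1, 20.5 and 6.76 CPM in other inhibitory nuclei, a log2 ratio of 2.49 ± 0.253 (SE, adjusted p = 0.000435). Hapln4, a link protein that ties proteoglycans to hyaluronan, had 12.6, 20.9 and 9.31 CPM in Pvalb nuclei, against 4.00, 4.15 and 1.77 CPM in other inhibitory nuclei, a log2 ratio of 1.99 ± 0.413 (SE, adjusted p = 0.0115). Adamts15, a protease that cuts them, was at 2.65 ± 0.416 (SE, adjusted p = 0.00281). These 3 kept their calls in the GABA-marker-positive comparison. Mme did not (0.53), and Acan joined them there. Acan, the net proteoglycan aggrecan, had 7.39, 6.98 and 179 CPM in Pvalb nuclei, against 1.32, 2.43 and 70.9 CPM in GABA-marker-positive and 1.77, 3.53 and 182 CPM in all other inhibitory nuclei. Mouse 3 was far above the others in each class, glutamatergic nuclei included, which had 0.917, 1.45 and 22.8 CPM. Acan's log2 fold change was 0.35 (adjusted p = 0.681) against all and 1.50 (adjusted p = 0.000886) in the GABA-marker-positive comparison. Ptprz1, a receptor phosphatase that binds the net, was lower at -2.93 ± 0.32 (SE, adjusted p = 0.000579).

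The mice carry an altered Scn8a allele, and 3' counts hold both alleles together. Scn8a lies at chromosome 15, 100869858 to 101045938, plus strand (GENCODE M21, GRCm38). Scn8a had 364, 342 and 382 CPM in Pvalb nuclei, against 296, 266 and 375 CPM in all other inhibitory nuclei and 269, 251 and 254 CPM in GABA-marker-positive ones. The log2 ratio was 0.14 ± 0.197 (SE, adjusted p = 0.747) against all, below 0 when nuclei were thinned to 1000 UMIs (-0.17) or needed 3 Pvalb UMIs (-0.016), and 0.50 (adjusted p = 0.0523) in the GABA-marker-positive comparison, so no difference passed the test. Of 17 sodium channel genes tested, 2 were higher and 2 lower, beside 3.35% and 4.33% over all genes. In the GABA-marker-positive comparison none was higher and 2 were lower, beside 1.92% and 3.41%. Scn3a, an alpha subunit best known from early development, had 38.4, 55.8 and 15.5 CPM in Pvalb nuclei, against 135, 96.5 and 109 CPM in other inhibitory nuclei, a log2 ratio of -2.09 ± 0.317 (SE, adjusted p = 0.00239). Scn3b, a beta subunit, was at -2.08 ± 0.293 (SE, adjusted p = 0.00166). Both were lower in every mouse and stayed called in the GABA-marker-positive comparison. Scn1a, the main alpha subunit of parvalbumin interneurons, had 531, 419 and 469 CPM in Pvalb nuclei, against 339.5, 291 and 160.2 CPM in other inhibitory nuclei. Its log2 fold change of 0.85 ± 0.226 (SE, adjusted p = 0.0373) was under the fold threshold.

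Potassium channel genes moved in both directions, with 8 of 42 higher and 8 lower, beside 3.35% and 4.33% over all genes. In the GABA-marker-positive comparison 2 of 41 were higher and 4 lower, beside 1.92% and 3.41%. Kcna1, the Kv1.1 channel of axons, had 101, 41.9 and 149 CPM in Pvalb nuclei, against 43.2, 57.0 and 41.9 CPM in other inhibitory nuclei, so that mouse 2 alone, with 7 members, went the other way. Its log2 fold change was 1.14 ± 0.298 (SE, adjusted p = 0.0345). Kcnd3, the A-type channel Kv4.3, had 143, 147 and 164 CPM in Pvalb nuclei, against 378, 359.5 and 548 CPM in other inhibitory nuclei, a log2 ratio of -1.58 ± 0.211 (SE, adjusted p = 0.00123). Kcnt2, a sodium-activated channel, was lower at -1.85 ± 0.326 (SE, adjusted p = 0.00497). Kcna1, Kcnab3, Kcnd3, Kcnt2 and Kcnn3 kept their calls in the GABA-marker-positive comparison and Kcnq5, a muscarine-sensitive M-type channel, joined as lower (-1.26). Kcnip4 and Kcnd2 did not keep theirs; Kcnip4 had 2429, 1130 and 1672 CPM in Pvalb nuclei, against 4617, 4662 and 11989 CPM in all other inhibitory nuclei and 2863, 3613 and 2612 CPM in GABA-marker-positive ones.

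Calcium channel subunits of the alpha2delta family split. Of 20 calcium and HCN genes tested 4 were higher and 5 lower, beside 3.35% and 4.33% over all genes. In the GABA-marker-positive comparison 1 of 20 was higher and 2 were lower, beside 1.92% and 3.41%. Cacna2d2 had 211, 119 and 123 CPM in Pvalb nuclei, against 55.8, 47.1 and 17.0 CPM in other inhibitory nuclei, a log2 ratio of 2.07 ± 0.262 (SE, adjusted p = 0.000929). Cacna2d1 had 132, 188 and 219 CPM in Pvalb nuclei, against 862, 781 and 1073 CPM in other inhibitory nuclei, a log2 ratio of -2.46 ± 0.217 (SE, adjusted p = 0.000372). The first was higher and the second lower in every mouse, and both held in the GABA-marker-positive comparison, at 1.52 and -2.20. Cacna1g, a T-type channel, was lower at -1.49 ± 0.291 (SE, adjusted p = 0.00824).

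Glutamate receptor genes held 7 lower and no higher members among 23 tested, beside 4.33% and 3.35% over all genes. In the GABA-marker-positive comparison 5 of 22 were lower and none higher, beside 3.41% and 1.92%. Grm8, a presynaptic metabotropic receptor, had 42.9, 62.8 and 89.4 CPM in Pvalb nuclei, against 249, 307 and 309.6 CPM in other inhibitory nuclei, a log2 ratio of -2.25 ± 0.222 (SE, adjusted p = 0.000435). Grin3a, an NMDA receptor subunit, had 39.9, 76.7 and 8.69 CPM in Pvalb nuclei, against 185, 114 and 42.2 CPM in other inhibitory nuclei, a log2 ratio of -1.94 ± 0.302 (SE, adjusted p = 0.00265). Grin2a was lower against all (-1.43) but not by the fold threshold in the GABA-marker-positive comparison (-0.90). Grik1, a kainate receptor subunit, was -1.15 (adjusted p = 0.0561) against all and -2.11 (adjusted p = 5.18e-05) in the GABA-marker-positive comparison. Gria4 and Gria3, AMPA receptor subunits, were at 0.85 ± 0.212 (SE, adjusted p = 0.0292) and 0.69 ± 0.204 (SE, adjusted p = 0.0571), under the fold threshold.

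Of 14 GABA receptor genes 2 were higher and 4 lower, beside 3.35% and 4.33% over all genes. In the GABA-marker-positive comparison 1 was higher and 2 were lower, beside 1.92% and 3.41%. Gabrd, the delta subunit of extrasynaptic receptors, had 42.9, 20.9 and 18.6 CPM in Pvalb nuclei, against 12.9, 11.2 and 1.65 CPM in other inhibitory nuclei, a log2 ratio of 2.21 ± 0.414 (SE, adjusted p = 0.00665). Gabrg1, a gamma subunit, had 3 UMIs over the members and 597 over the other inhibitory nuclei, a ratio of 0.120 (exact 95% counting interval 0.0247 to 0.353). Gabra2 was lower at -1.48 ± 0.202 (SE, adjusted p = 0.00133). These 3 were the ones that kept their calls in the GABA-marker-positive comparison.

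Receptors for neuromodulators and peptides held 3 higher and 4 lower among 21 tested, and 1 higher and 8 lower among 22 in the GABA-marker-positive comparison. For this and the next 2 lists, the shares over all genes were 3.35% higher and 4.33% lower. In the GABA-marker-positive comparison they were 1.92% and 3.41%. Oprd1, the delta opioid receptor, had 113, 119 and 42.2 CPM in Pvalb nuclei, against 37.3, 45.4 and 6.92 CPM in other inhibitory nuclei, a log2 ratio of 1.84 ± 0.248 (SE, adjusted p = 0.00129). It was the member that stayed higher (1.42). Htr2c, a serotonin receptor, was lower at -2.19 ± 0.272 (SE, adjusted p = 0.000812). Oprm1, the mu opioid receptor, had 67.2, 48.8 and 18.6 CPM in Pvalb nuclei, against 70.4, 62.6 and 24.0 CPM in other inhibitory nuclei, at -0.29 ± 0.221 (SE, adjusted p = 0.508). Chrm2, the M2 muscarinic receptor, and Cckbr, a cholecystokinin receptor, were higher against all (1.25 and 1.78) and not called in the GABA-marker-positive comparison (0.59 and 0.86). Of 14 genes of neuregulins, neurotrophins and their receptors, 2 were higher and 4 lower, and 1 and 2 in the GABA-marker-positive comparison. Igf1, an insulin-like growth factor, was lower against all other inhibitory nuclei, at -2.46 ± 0.334 (SE, adjusted p = 0.00133), and in the GABA-marker-positive comparison (-3.46). Of 33 adhesion and synapse-organiser genes 4 were higher and 3 lower, and 2 and 2 in the GABA-marker-positive comparison. Cdh8, a cadherin, was lower at -1.52 ± 0.225 (SE, adjusted p = 0.0021), and Nxph2 and Cntnap4 were higher.

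The members were not uniform in genes that separate their subtypes. Unc5b, a netrin receptor that marks axo-axonic cells, had a UMI in 35.2%, 28.6% and 42.3% of members of mice 1, 2 and 3, against 10.4%, 9.33% and 8.58% of other inhibitory and 6.98%, 11.3% and 26.9% of glutamatergic nuclei. Pthlh, parathyroid hormone-like hormone, a peptide of a subset of parvalbumin cells, had a UMI in 24.1%, 14.3% and 42.3% of members, against 1.89%, 1.33% and 1.49% of other inhibitory and 0.147%, 0.136% and 0.396% of glutamatergic nuclei. Tac1, which encodes the precursor of substance P, had a UMI in 27.8% and 23.1% of members of mice 1 and 3 and in none of the 7 of mouse 2, which allows up to 42.9%, against 5.66%, 3.11% and 4.29% of other inhibitory and 1.08%, 0.407% and 3.83% of glutamatergic nuclei. The glutamatergic shares serve as background. Pthlh was nearly absent there, while the exact 95% interval of the Unc5b share in mouse 3 members, 23.4% to 63.1%, includes it. Of the 25 members with Pthlh, 16 also had Unc5b (64.0% of the Pthlh members and 50.0% of the 32 Unc5b members), and 2 also had Tac1 (8.00% of them and 9.52% of the 21 Tac1 members). These counts come from few UMIs per nucleus and are given with no test.

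Pthlh itself had 17.0, 6.98 and 34.8 CPM in Pvalb nuclei, against 1.84, 1.24 and 0.672 CPM in other inhibitory nuclei, a log2 ratio of 4.32 ± 0.574 (SE, adjusted p = 0.0012). Cemip, an enzyme that degrades hyaluronan, had 287, 314 and 539 CPM in Pvalb nuclei, against 92.7, 108 and 130.3 CPM in other inhibitory nuclei, a log2 ratio of 1.68 ± 0.198 (SE, adjusted p = 0.000641). Both kept their calls in the GABA-marker-positive comparison (3.42 and 1.74). Among 13 tested genes of axo-axonic, basket and bistratified cells 5 were higher and 2 lower, beside 3.35% and 4.33% over all genes. In the GABA-marker-positive comparison 2 of 13 were higher and 4 lower, beside 1.92% and 3.41%. Npy, neuropeptide Y, which bistratified and many other interneurons make, was not called against all (-0.89, adjusted p = 0.0565) and was lower in the GABA-marker-positive comparison (-1.67). It had 43.6, 14.0 and 76.4 CPM in Pvalb nuclei, against 115, 88.1 and 301 CPM in GABA-marker-positive other inhibitory nuclei, with mouse 3 highest in each class.

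Sst nuclei, chosen by the mirrored rule (2 or more Sst UMIs, more than of each of Pvalb, Vip and Lamp5), are the nearest relatives by lineage. There were 149, 24 and 140 of them. Mouse 2, with 7 Pvalb nuclei, fell under the minimum of 10 nuclei and was left out, so this fit and the next use mice 1 and 3 and have 1 residual degree of freedom, with the spread pooled across genes. Of 11636 genes 369 (3.17%) were higher and 502 (4.31%) lower in Pvalb nuclei, 871 (7.49%) in all. Without the mouse block none was called (817 had an unadjusted p under 0.05), DESeq2 called 422, and thinning to 1000 UMIs left 152. Among GABA-marker-positive nuclei 734 genes (6.6%) were called, 2.92% higher and 3.68% lower. Of the 24 marker genes tested 15 were higher and none lower. The 12 leading higher genes were Pthlh, Mybpc1, Syt2, Agbl1, Pde11a, Zbtb7c, Adamtsl5, Aox3, Mypn, Gabrd, Pde5a and Wnt5b. The leading lower genes included Npas1, Qrfpr, Emp1, Stk32b, Reln, Lama4, Klhl1, Gabrg1, Grin3a, Zcchc12 and Vcan.

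Pthlh had 79 UMIs over the Pvalb nuclei and 2 over the Sst nuclei of mice 1 and 3, a ratio of 123 (exact 95% counting interval 32.9 to 1031). Pde11a, a phosphodiesterase that breaks down cyclic nucleotides, had 253 and 209 CPM in Pvalb nuclei of mice 1 and 3, against 21.7 and 5.54 CPM in Sst nuclei, a log2 ratio of 4.35 ± 0.273 (SE, adjusted p = 1.01e-08). Pde5a, a cyclic GMP phosphodiesterase, had 105 and 143 CPM in Pvalb nuclei, against 12.4 and 8.39 CPM in Sst nuclei, a log2 ratio of 3.68 ± 0.231 (SE, adjusted p = 1.01e-08). These genes were apart in both mice. Reln had 40.6 and 7.45 CPM in Pvalb nuclei, against 1060 and 1093 CPM in Sst nuclei, a log2 ratio of -5.60 ± 0.345 (SE, adjusted p = 1.01e-08). Grin3a had 39.9 and 8.69 CPM in Pvalb nuclei, against 448 and 233 CPM in Sst nuclei, a log2 ratio of -3.90 ± 0.237 (SE, adjusted p = 1.01e-08). Elfn1, the synaptic protein that recruits facilitating input to Sst cells, was lower in Pvalb nuclei at -2.38 ± 0.194 (SE, adjusted p = 2.39e-07). Qrfpr, a neuropeptide receptor, had 1 UMI in Pvalb and 275 in Sst nuclei, a ratio of 0.0113 (0.000285 to 0.0635).

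Erbb4 had 8439 and 8162 CPM in Pvalb nuclei, against 1677 and 1173 CPM in Sst nuclei, a log2 ratio of 2.60 ± 0.177 (SE, adjusted p = 3.1e-08). Of 12 medial eminence genes tested 2 were higher (Erbb4 and Nxph2) and 2 lower (Npas1 and Elfn1), beside 3.17% and 4.31% over all genes. Among the others, Lhx6 was at 0.71 (adjusted p = 0.0139), Satb1 at -0.04 (adjusted p = 0.923) and Sox6 at 0.60 (adjusted p = 0.0146). Among channels, Kcnc1 had 427 and 287 CPM in Pvalb nuclei, against 141 and 114 CPM in Sst nuclei, a log2 ratio of 1.50 ± 0.158 (SE, adjusted p = 3.25e-06). Scn1a had 531 and 469 CPM in Pvalb nuclei, against 317 and 192 CPM in Sst nuclei, a log2 ratio of 1.05 ± 0.167 (SE, adjusted p = 0.000257). Kcna1 was higher too, at 1.57. Scn8a had 364 and 382 CPM in Pvalb nuclei, against 259 and 291 CPM in Sst nuclei, with a log2 ratio of 0.47 ± 0.153 (SE, adjusted p = 0.0533), which is under the fold threshold.

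Lamp5 nuclei, by the same mirrored rule, numbered 81, 29 and 71, and include neurogliaform cells, which release GABA into the surrounding volume. Of 10671 genes 473 (4.43%) were higher and 587 (5.5%) lower in Pvalb nuclei, 1060 (9.93%) in all. Without the block 35 were called, DESeq2 called 484, and thinning left 179. Among GABA-marker-positive nuclei 1025 (9.68%) were called, 4.44% higher and 5.24% lower. Of 24 marker genes 15 were higher and none lower. The 12 leading higher genes were Cdk15, Syt2, Crhbp, Pthlh, Sox6, Adamtsl5, Aox3, Wnt5b, Mypn, Ctsc, Rnf144b and Agbl1. The 12 leading lower genes were Ndnf, Met, Vcan, Adgrg6, Myo3a, Sema3c, Stk32b, Edaradd, Pld5, Col5a2, Adarb2 and Reln. Cdk15 had 76 UMIs in Pvalb nuclei and none in Lamp5 nuclei of mice 1 and 3, at least 39.7-fold higher with a limit of 3 UMIs over the class. That limit does not cover mouse 2, where Lamp5 nuclei had 3.38 CPM of Cdk15 from 2 UMIs, against 20.9 CPM in Pvalb nuclei. Ndnf and Met had no UMI in Pvalb nuclei and were at least 33.4-fold and 32.4-fold lower. Crhbp, a binding protein for corticotropin-releasing hormone, had 106 and 218 CPM in Pvalb nuclei, against 1.26 and 8.5 CPM in Lamp5 nuclei, a log2 ratio of 4.94 ± 0.293 (SE, adjusted p = 1.22e-10). Sox6 had 406 and 374 CPM in Pvalb nuclei, against 18.3 and 10.1 CPM in Lamp5 nuclei, a log2 ratio of 4.80 ± 0.237 (SE, adjusted p = 1.38e-11). Both genes were apart in each mouse.

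Of the fast-spiking channels, Kcnc2 had 2604 and 2284 CPM in Pvalb nuclei, against 637 and 562 CPM in Lamp5 nuclei, a log2 ratio of 1.99 ± 0.196 (SE, adjusted p = 1.69e-07). Against Sst nuclei, at 1801 and 1410 CPM, it was 0.64 ± 0.156 (SE, adjusted p = 0.00912) and under the fold threshold. Cacna2d1 had 132 and 219 CPM in Pvalb nuclei, against 2430 and 2033 CPM in Lamp5 nuclei, a log2 ratio of -3.74 ± 0.241 (SE, adjusted p = 4e-10). Cacna2d2 went the other way, at 3.32 ± 0.231 (SE, adjusted p = 1.25e-09). Fgf13, a partner of sodium channels, was higher against Sst nuclei, at 1.51 ± 0.156 (SE, adjusted p = 2.78e-06), and lower against Lamp5 nuclei, at -1.62 ± 0.207 (SE, adjusted p = 5.94e-06). Scn8a had 364 and 382 CPM in Pvalb nuclei, against 280.4 and 263 CPM in Lamp5 nuclei, at 0.42 ± 0.178 (SE, adjusted p = 0.13). Both comparisons share the Pvalb nuclei.

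**Figure D3:**
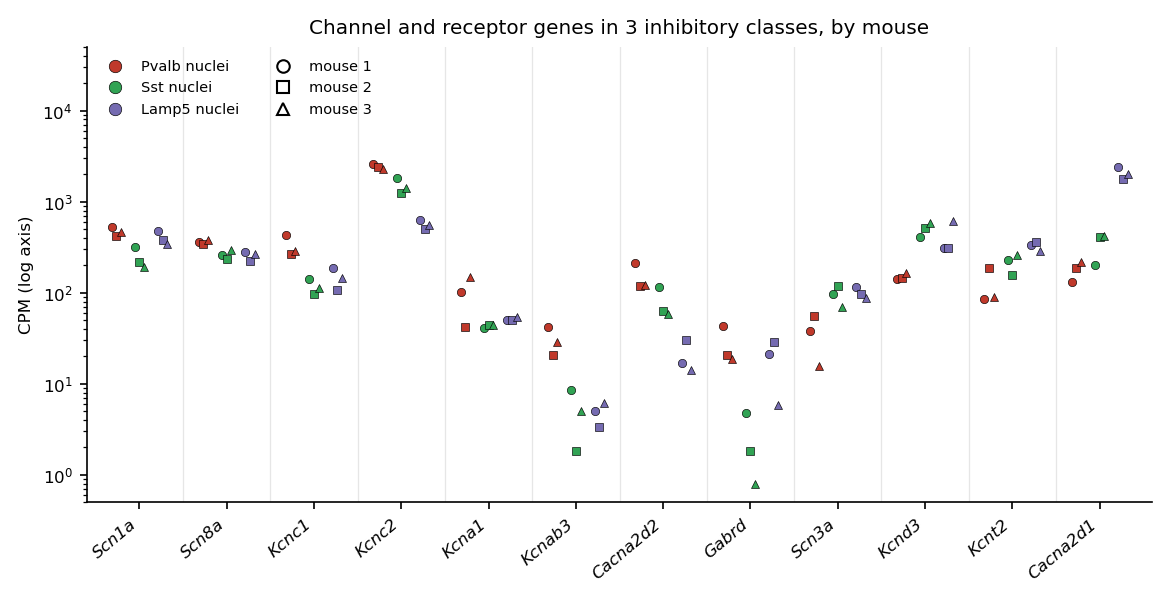
CPM (log axis) of 12 channel and receptor genes in Pvalb, Sst and Lamp5 nuclei; each symbol is 1 mouse, and mouse 2 rests on 7 Pvalb nuclei. Kcnab3 is above both other classes in each mouse, from 3 UMIs in Pvalb nuclei of mouse 2. Kcnc2 is lowest in Lamp5 nuclei, and Cacna2d2 and Cacna2d1 lie in opposite order between Pvalb and Lamp5 nuclei.

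Among 55 tested genes linked to epileptic encephalopathy, a severe epilepsy that includes the one caused by Scn8a variants, 10 were higher and 6 lower in Pvalb than in other inhibitory nuclei, beside 3.35% higher and 4.33% lower over all genes. The GABA-marker-positive comparison called 3 higher, Kcna1, Cacna2d2 and Mef2c, and 1 lower, Scn3a, beside 1.92% and 3.41% over all genes. Against Sst nuclei 5 were higher (Kcna1, Kcnc1, Scn1a, Mef2c and Fgf13) and 2 lower (Scn3a and Cux2), beside 3.17% and 4.31% over all genes. The 1 and 2 lower genes are near those shares and are no result about the list. Mef2c, an activity-dependent transcription factor, was at 1.55 ± 0.173 (SE, adjusted p = 5.97e-06). Against Lamp5 nuclei 6 were higher and 7 lower, beside 4.43% and 5.5% over all genes.

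Activity-regulated genes, which neurons switch on after strong firing, differed between the mice within Pvalb nuclei. The 34 genes summed to 1409 CPM in mouse 1 (exact 95% Poisson interval 1347 to 1474), 865 CPM in mouse 2 (720 to 1031) and 2178 CPM in mouse 3 (2107 to 2251). The intervals cover counting error only, and 1 mouse per batch gives no test. Intervals of mice 1 and 3 were apart for 17 genes. Mouse 3 was above mouse 1 for 12 of the 34: Fosl2, Bdnf, Homer1, Nptx2, Inhba, Ptgs2, Dusp4, Pcsk1, Vgf, Scg2, Rgs2 and Baz1a. Mouse 1 was above mouse 3 for 5: Fosb, Egr4, Arc, Nr4a1 and Nr4a2, 4 of them transcription factors of the immediate early response. Bdnf, a neurotrophin induced late after activity, had 39.9, 55.8 and 209 CPM, and Homer1, a postsynaptic scaffold, had 209.9, 369.8 and 677 CPM. Fosb had 129, 6.98 and 44.1 CPM and Nr4a1 90.9, 6.98 and 57.1 CPM. In mouse 2, 9 of the genes had no UMI in the 7 members, Fos among them, which allows up to 20.9 CPM.

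Mouse 3 was also highest for Bdnf, and mouse 1 for Fosb, in other classes of nuclei. GABA-marker-positive other inhibitory nuclei had 49.0, 69.0 and 208 CPM of Bdnf and 96.9, 4.16 and 38.0 CPM of Fosb in mice 1, 2 and 3, and glutamatergic nuclei had 163, 148 and 608 CPM of Bdnf and 59.9, 3.35 and 22.3 CPM of Fosb. Batch and depth move with the mouse, and their part was not tested. Against all other inhibitory nuclei, 14 of 34 activity genes were lower in Pvalb nuclei and none higher, with a median log2 fold change of -1.04. Over all genes 4.33% were lower and 3.35% higher. In the GABA-marker-positive comparison 1 of 33, Inhba, was lower, and none was higher, beside 3.41% and 1.92% over all genes. The 1 lower gene is near that share and is no result about the list. Inhba, a subunit of activin, had 4.43, 6.98 and 56.5 CPM in Pvalb nuclei, against 11.9, 35.0 and 119 CPM in GABA-marker-positive and 24.4, 41.5 and 214 CPM in all other inhibitory nuclei. Its log2 fold changes were -2.20 and -1.24 (adjusted p = 0.0026). Bdnf was lower against all other inhibitory nuclei, at -2.27 ± 0.254 (SE, adjusted p = 0.000579), and was at -0.34 (adjusted p = 0.335) in the GABA-marker-positive comparison. Against Sst nuclei 6 of 33 were lower, beside 4.31% over all genes. Against Lamp5 nuclei 9 of 33 were lower and 1, Dusp1, was higher, beside 5.5% and 4.43% over all genes.

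**Figure D4:**
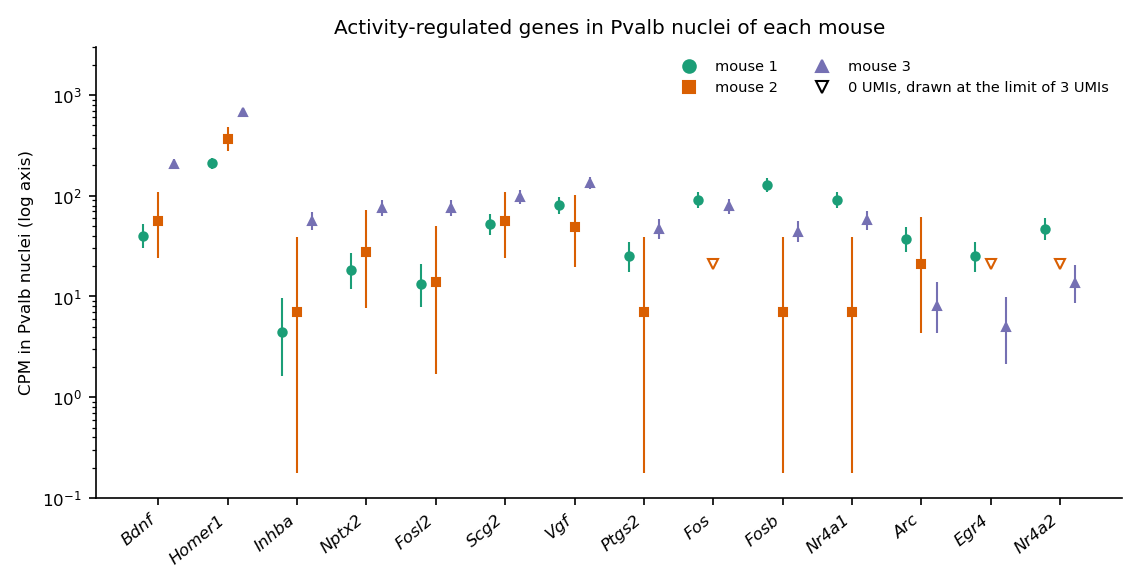
CPM (log axis) of 14 activity-regulated genes in Pvalb nuclei of each mouse, with exact 95% Poisson intervals; open triangles mark 0 UMIs, drawn at the limit of 3 UMIs. Mouse 3 is above mouse 1 for the 8 genes on the left, Bdnf to Ptgs2, and mouse 1 is above mouse 3 for the 5 on the right, Fosb to Nr4a2.

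Transcripts of other cell types were present in the members. Of the 87, 35 had a Slc17a7 UMI and 31 had a UMI of Mbp, a myelin gene. Glutamatergic marker genes (12) summed to 611, 551 and 557 CPM in members, against 559, 632 and 429 CPM in GABA-marker-positive and 774, 721 and 886 CPM in all other inhibitory nuclei, so that members of mice 1 and 3 stood above the marker-positive ones. Against all, 3 of the 9 tested were lower, beside 4.33% over all genes. Oligodendrocyte markers (8) summed to 162, 62.8 and 214 CPM in members, against 225, 600.4 and 154 CPM in GABA-marker-positive and 342, 736 and 403 CPM in all other inhibitory nuclei. Astrocyte markers (7) summed to 93.1, 251 and 382 CPM in members, against 324, 332 and 415 CPM in GABA-marker-positive and 359, 371 and 523 CPM in all other inhibitory nuclei. Microglia markers (7) summed to 80.5, 76.7 and 24.8 CPM in members, against 58.2, 187 and 35.9 CPM in GABA-marker-positive and 59.9, 190 and 42.6 CPM in all other inhibitory nuclei. Markers of oligodendrocyte precursors (5) summed to 5.17, 0 and 5.59 CPM in members. GABA-marker-positive nuclei had 118, 88.1 and 112 CPM, and all other inhibitory nuclei 94.6, 80.9 and 44.8 CPM. Vcan, 1 of these 5 genes, alone had 108, 77.7 and 106 CPM in GABA-marker-positive and 78.8, 67.8 and 35.7 CPM in all other inhibitory nuclei. Lamp5 nuclei had 288, 165 and 296 CPM of Vcan. These sums thus mostly repeat the Vcan difference given above and do not measure precursor transcripts alone. In mouse 1 members the astrocyte genes Gfap and Gja1 were at 0, and the endothelial marker Cldn5 was at 0 in the members of all 3 mice. The share of these transcripts in any result was not tested. None of the glutamatergic or glial marker lists had a member higher in Pvalb nuclei, and of 5 endothelial markers none passed the filter on low counts. Among 13 RNA quality genes none of 11 tested was called.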

How the data were processed

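The values used are UMI counts per gene and nucleus from 3 hippocampal libraries, whole numbers as the authors deposited them. The authors made the counts with Cell Ranger 7.0.0 (mice 1 and 2) and 7.1.0 (mouse 3), per the file headers, and the submitters' processing notes name mm10. The sources used here do not say whether intronic reads were counted or strand was used.

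Nuclei with 500 or more genes were classed by the UMI rules given above. Counts were summed per class and mouse and tested with edgeR 4.0.16 (R 4.3.3): filterByExpr, TMM, and the quasi-likelihood test with a term for each mouse, its p-values adjusted by Benjamini and Hochberg's method across every gene in the fit. Fits against other inhibitory nuclei kept mouse 2 with its 7 Pvalb nuclei (4 among GABA-marker-positive ones). Fits against Sst and Lamp5 nuclei needed 10 nuclei a class and left it out. The 7 genes of the rules stayed in library sizes and out of tests. Genes were called at an adjusted p under 0.05 where the log2 ratio reached 1 in size. The steps were tested on simulated data.

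Classes of a mouse come from 1 animal, which is what pairs them. Their deviations from the class means correlated at 0.33, 0.10 and 0.34 in mice 1, 2 and 3 over 12426 genes. Mice are the replicates, and p-values weigh the class difference against how it varies between animals, with the spread pooled in part across genes. These are 3 animals against other inhibitory nuclei, and 2 (mice 1 and 3) against Sst and Lamp5 nuclei. With 1 residual degree of freedom, p-values against Sst and Lamp5 nuclei rest mostly on the spread pooled across genes. Intervals cover counting error only.

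Named genes were, of those called, moved alike in every mouse and at 20 CPM or more in the higher class, the 12 with the largest fold change each way, without numbered Gm and Rik symbols, plus Scn8a. A named gene against Sst nuclei and a list member are not reported here. From the lists, up to 4 members with the largest change and members whose role is described were named. The members, the gene lists and the markers were chosen with earlier results of these data known. Scrublet in scanpy 1.11.5 marked 732 of 8621, 1444 of 13201 and 265 of 4658 nuclei as doublets, in mouse 2 by expected rate because its own threshold marked none. Doublets stayed in, and an alternative removed them. Other alternatives were RLE scaling, DESeq2 1.42.0, no filter, no block, 3 UMIs of the class marker, no Slc17a7 UMI, 1000 UMIs per nucleus, each mouse left out and, added after the data were seen, GABA-marker-positive nuclei and all 3 mice. Gene positions come from GENCODE M21 (32158 of 32285 gene IDs matched) and promoters from RefSeq.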

Additional observations from a re-analysis of the deposited data

How the results depend on the processing

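Over the single genes named, 698 alternative values kept direction and call, 56 lost the call with the direction kept, and 2 changed sign. Both sign changes were for Scn8a, which was not called, in Pvalb against other inhibitory nuclei. They were -0.17 at 1000 UMIs per nucleus and -0.016 with 3 or more UMIs of the marker. Genes that an alternative fit did not test are not in these counts. At 1000 UMIs per nucleus, 5, 5 and 7 of the 24 leading genes were tested against other inhibitory, Sst and Lamp5 nuclei. Calls stood for 3, 5 and 7 of them, and the rest could not be judged at equal depth. Without the replicate block, which ignores that classes share a mouse, 133 genes were called against other inhibitory nuclei, 0 against Sst nuclei (817 at an unadjusted p under 0.05) and 35 against Lamp5 nuclei. With nuclei thinned to 1000 UMIs the counts were 131 of 4081 tested (31 higher, 100 lower), 152 of 1985 and 179 of 1193. DESeq2 gave 739, 422 and 484 calls, and GABA-marker-positive nuclei gave 615, 734 and 1025. Leaving out 1 mouse gave 758 to 964 calls against other inhibitory nuclei; against Sst and Lamp5 nuclei it leaves no residual degree of freedom. The mean share was 6.60% among GABA-marker-positive nuclei, and 1.50% to 3.95% with 1 mouse left out. Activity-regulated genes summed to 1241, 714 and 1923 CPM in mice 1, 2 and 3 at 1000 UMIs, and to 2024 CPM in mouse 3 without doublets. The cause of these shifts was not tested. The 7 members of mouse 2 limit what can be said of that animal.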
